A study of Mus musculus with 24 samples.

Results

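The 29 genes described here handle cholesterol: they make it, govern how much is made, move it within the cell or export it. They were taken by symbol from the table of gene counts, which holds 24421 genes, and all 29 were among the 15385 genes with enough counts to be tested. They fall into 3 sets by their known roles. The 18 synthesis enzymes are Acat2, Hmgcs1, Mvk, Pmvk, Mvd, Idi1, Fdps, Fdft1, Sqle, Lss, Cyp51, Tm7sf2, Msmo1, Nsdhl, Hsd17b7, Ebp, Sc5d and Dhcr7. The 5 genes of SREBP2 regulation and sterol transport are Srebf2, Scap, Insig1, Insig2 and Stard4, and the 6 genes of LXR and efflux are Nr1h2, Nr1h3, Abca1, Abcg1, Mylip and Apoe.

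The study measured RNA in sciatic nerve of mice and asked, by its title, how joint block of CDK4/6 and ERK1/2 acts on plexiform neurofibroma, a nerve tumour that is benign. All 24 libraries, controls included, came from mice of genotype Nf1 flox/flox PostnCre+, in which a Cre recombinase under the control of Postn deletes Nf1, the gene of a RAS inhibitor. Treatment lasted 1 week in each of the 4 groups of 6 libraries. It consisted of vehicle, of LY3214996, which blocks ERK1/2 (group ERKi), of abemaciclib, which blocks CDK4/6 (group CDKi), or of the pair given together (group combination). No group with intact Nf1 was analysed here, the labels give no age, and the tissue was whole nerve, so cells in which Cre was never active contributed RNA. In such bulk samples fewer cells of a type and less RNA per cell cannot be told apart. The labels do not state whether each library had its own animal, so p-values rest on the spread among libraries, which may be technical.

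Animal cells build cholesterol from acetyl-CoA through mevalonate, squalene and lanosterol. When sterols in the endoplasmic reticulum are scarce, the escort protein SCAP carries the transcription factor SREBP2 to the Golgi, where it is cut and released to switch on nearly every enzyme of the route. When sterols are plentiful, INSIG proteins hold SCAP back, and oxysterols and other sterols activate the LXR receptors, which switch on the exporters ABCA1 and ABCG1 and the ubiquitin ligase MYLIP. In peripheral nerve, Schwann cells make most of the cholesterol of their myelin themselves, and macrophages export cholesterol taken up from myelin debris.

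The stretches just before the start sites of 4 genes are shown because these genes stand on both sides of the SREBP2 and LXR divide and each had an unadjusted p under 0.05 in the combination against vehicle, reported below. Hmgcs1 spans chr13:119690379-119708260 on the plus strand and Abca1 chr4:53030787-53159895 on the minus strand in the GENCODE annotation of GRCm38. The stretches come from RefSeq, build GRCm38.p6, lie outside annotated exons, run 5′ to 3′ on the gene's strand and end at the base before the start. Capitals mark matches to motifs searched on both strands: the sterol regulatory element TCACNCCAC, the NF-Y box CCAAT, whose factor works beside SREBP2 and whose reverse complement is also in capitals, and the E-box CACGTG.
Hmgcs1, chr13:119690171-119690350, plus strand: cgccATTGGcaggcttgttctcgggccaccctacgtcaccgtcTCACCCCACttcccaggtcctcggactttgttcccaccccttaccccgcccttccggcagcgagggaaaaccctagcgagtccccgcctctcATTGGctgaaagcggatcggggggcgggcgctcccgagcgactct
Nsdhl, chrX:72918412-72918520, plus strand: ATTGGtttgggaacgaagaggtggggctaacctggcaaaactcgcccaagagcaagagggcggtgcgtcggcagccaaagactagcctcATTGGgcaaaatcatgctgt
Sc5d, chr9:42264301-42264450, minus strand: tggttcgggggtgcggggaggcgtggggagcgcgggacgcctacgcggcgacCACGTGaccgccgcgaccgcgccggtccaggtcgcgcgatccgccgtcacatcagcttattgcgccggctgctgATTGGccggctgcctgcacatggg
Abca1, chr4:53159896-53160075, minus strand: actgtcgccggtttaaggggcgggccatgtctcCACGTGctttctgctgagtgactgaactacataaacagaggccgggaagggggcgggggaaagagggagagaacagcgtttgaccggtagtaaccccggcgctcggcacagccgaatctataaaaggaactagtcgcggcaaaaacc

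Promoter windows from 250 bases before to 50 after the start were at hand for 24 of the 29 genes. The element TCACNCCAC was in the window of Hmgcs1, starting 137 bases before the start, and in that of 0 other members, against 1.24% of all 32851 windows. A CCAAT box was in 14 of 15 matched synthesis enzymes, in 3 of 4 matched regulators (Insig1, Insig2 and Srebf2) and in 1 of 5 matched genes of LXR and efflux (Mylip), against 37.4% of all windows. The E-box was in Dhcr7, Hsd17b7, Sc5d, Insig1, Scap and Abca1, against 7.15% of windows. The direct repeat bound by LXR, in its consensus letters, was in 0.0152% of windows and in 0 members. Only exact matches to those letters were searched, so a site with other letters, in Abca1 or elsewhere, would have been missed. Some members have several windows, and a match is a description of the letters only.

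Vehicle libraries held 5391543 to 42321550 counts, ERKi libraries 14525128 to 24676846, CDKi libraries 15118837 to 19757307 and combination libraries 12096063 to 18518610. Levels are CPM, counts brought to a common library size with TMM scaling, with n = 6 libraries a group. A count of 3, taken as the limit of detection, was between 0.0697 and 0.536 CPM, below every CPM level of the 29 genes. Limits of this kind cover counting error only. Genes of liver were present in 3 libraries (ERKi 3, CDKi 1 and CDKi 3), with 3155 to 4543 CPM of Alb against at most 1.607 elsewhere, and 6 libraries (vehicle 1 and 5, CDKi 3 and 5, combination 3 and 5) had a mean log2 CPM under 6 over 10 neuron genes. In the remaining libraries that mean was between 7.121 and 9.493 log2 CPM, and where this RNA came from was not tested. Schwann cell and myelin genes were present in every library, with means over the 18 myelin genes between 7.124 and 9.593 log2 CPM.

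Per kilobase of exon, Apoe, whose product carries cholesterol between cells, had the highest level of the 29 genes in vehicle at 468 ± 44.2 CPM per kb (SD). Hmgcs1, which makes the precursor of mevalonate, followed at 139 ± 54.9 CPM per kb. Abca1, which loads cholesterol onto lipoprotein particles, was at 36.2 ± 16.7 and Mylip, whose product marks lipoprotein receptors for breakdown, at 34.8 ± 12.5 CPM per kb. Abca1 and Mylip lay closer to each other than their spread between libraries. Sc5d at 27.5 ± 7.83 and Insig1 at 26.7 ± 3.48 CPM per kb came next and likewise differed by less than either SD, and Msmo1 followed at 22.5 ± 7.01 CPM per kb. The lowest was the sterol reductase gene Tm7sf2 at 1.48 ± 0.412 CPM per kb.

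In the combination against vehicle all 18 synthesis enzymes had lower levels and 5 of 6 genes of LXR and efflux had higher ones. The median log2 fold change was -0.50 for the synthesis enzymes, with a range from -1.01 to -0.09, and 0.29 for LXR and efflux, against 0.036 for all tested genes, of which 43.6% were lower. At an adjusted p under 0.05 (edgeR's quasi-likelihood test, Benjamini-Hochberg over all tested genes) 0 of the 29 genes were called, beside 0.123% of all genes. At an unadjusted p under 0.05, 8 synthesis enzymes were lower, beside 6.58% of all genes, and 2 genes of LXR and efflux were higher, beside 4.93%. DESeq2 called 2 of the 29, Hmgcs1 and Sc5d, among 272 genes in all, and limma-voom called 0 of the 29 among 30.

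Hmgcs1 had the lowest p of the synthesis enzymes. Its levels ran from 317.8 over a median of 580.5 to 990.2 CPM in vehicle, from 354.5 over 447 to 692.4 in ERKi, and from 393.8 over 538.6 to 875.7 in CDKi. In the combination they ran from 187.2 over 315.5 to 491.8 CPM, so that all 6 libraries lay below the vehicle mean while the ranges overlapped. The log2 fold change against vehicle was -1.01 (SE 0.27, edgeR quasi-likelihood adjusted p = 0.124). The vehicle library with the lowest level was vehicle 4, and without it the log2 fold change was -1.14 with an adjusted p of 0.0488 in the same edgeR test. No other omission of a single library gave a call of any of the 29 genes in this comparison.

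**Figure D1:**
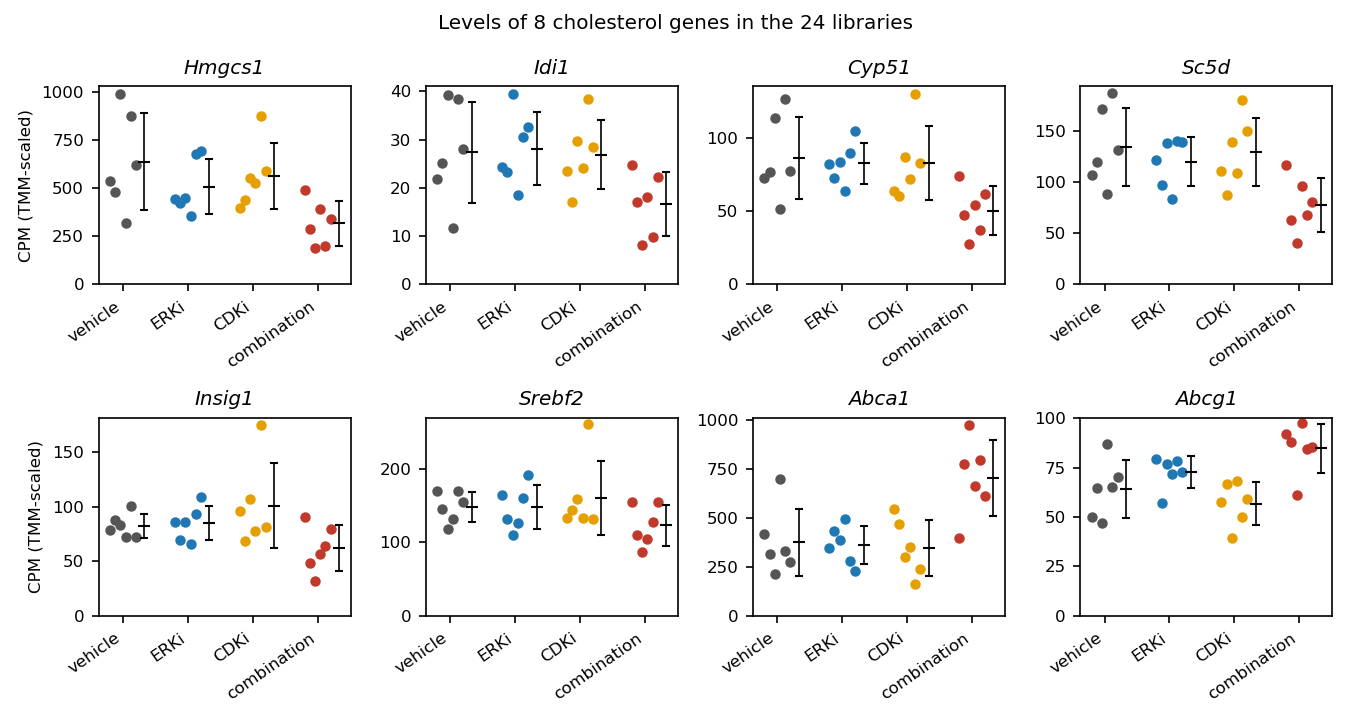
Levels of 8 of the genes in CPM after TMM scaling (vertical axis, from 0) in each of the 24 libraries, by group; points are libraries in the order of their numbers, and the bar beside them is the mean ± SD of 6 libraries. The combination libraries of Hmgcs1 reach from 187.2 to 491.8 CPM and those of Abca1 from 399.7 to 973.5 CPM, and both ranges overlap those of vehicle.

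Apart from Acat2, which acts before Hmgcs1, the other enzymes of the mevalonate branch lead from its product to the building blocks of squalene. Idi1, the isomerase of the isoprenoid unit, ran from 11.7 over 26.57 to 39.29 CPM in vehicle and from 8.137 over 17.6 to 24.8 CPM in the combination, a log2 fold change of -0.71 (SE 0.28, edgeR quasi-likelihood adjusted p = 0.314). Fdps, which joins those units into farnesyl diphosphate, ran from 31.79 over 50.96 to 75.55 CPM in vehicle and from 13.65 over 31.02 to 49.65 CPM in the combination, a log2 fold change of -0.72 (SE 0.28, edgeR quasi-likelihood adjusted p = 0.304). For both genes the lowest combination library lay below every vehicle library and the highest within the vehicle range. Further up the branch Mvd, the decarboxylase, was at 10.17 ± 2.24 CPM in vehicle and 7.093 ± 4.185 in the combination, while the mevalonate kinase Mvk (11.03 ± 2.43 and 10.34 ± 2.672 CPM), the next kinase Pmvk (8.5 ± 1.775 and 7.955 ± 1.205 CPM) and the thiolase Acat2 (26.32 ± 9.276 and 24.21 ± 8.324 CPM) differed by less than 1 SD.

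The enzymes of squalene synthesis and closure had log2 fold changes from -0.53 to -0.4. Fdft1, squalene synthase, was at 77.56 ± 26.62 CPM in vehicle and 58.8 ± 27.58 in the combination, and Sqle, squalene epoxidase, at 73.03 ± 15.75 and 52.01 ± 24.69 CPM, both with an unadjusted p above 0.05. Lss, which closes the ring to lanosterol, varied least of the synthesis enzymes in vehicle relative to its mean, from 44.7 over 50.44 to 59.68 CPM, and ran from 22.14 over 32.55 to 53.15 CPM in the combination. Its log2 fold change was -0.53 (SE 0.21, edgeR quasi-likelihood adjusted p = 0.291), and 5 of 6 combination libraries lay below the vehicle mean.

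Among the enzymes that trim lanosterol to cholesterol, Cyp51, the first demethylase, ran from 50.97 over 76.68 to 126.4 CPM in vehicle and from 27.21 over 50.78 to 73.7 CPM in the combination. Its log2 fold change was -0.78 (SE 0.23, edgeR quasi-likelihood adjusted p = 0.158). Sc5d, a sterol desaturase, ran from 87.98 over 125.3 to 186.8 CPM in vehicle and from 40.42 over 74.29 to 116.5 CPM in the combination, with ERKi from 83.75 over 130.3 to 139.9 and CDKi from 87.02 over 125.2 to 180.5 CPM. Here 6 of 6 combination libraries of either gene lay below the vehicle mean, and the ranges overlapped. The log2 fold change of Sc5d was -0.79 (SE 0.23, edgeR quasi-likelihood adjusted p = 0.142). Msmo1 and Nsdhl, which remove methyl groups from the ring, had log2 fold changes of -0.68 (SE 0.25) and -0.53 (SE 0.2), at edgeR quasi-likelihood adjusted p-values of 0.258 and 0.263, with all 6 combination libraries below the vehicle mean for each. Tm7sf2 was at 6.504 ± 1.814 CPM in vehicle and 4.704 ± 2.889 in the combination. Dhcr7, whose enzyme makes the last reduction to cholesterol, was at 33.67 ± 7.985 and 28.36 ± 10.33 CPM, and Hsd17b7 and Ebp also differed from vehicle by less than 1 SD.

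Of the 5 regulators and transporters, 4 were lower in the combination than in vehicle and Stard4, a sterol carrier, had a log2 fold change of 0.03 (SE 0.2). The median was -0.146, with 0 of 5 at an unadjusted p under 0.05. Insig1, itself a target of SREBP2, ran from 72.39 over 80.73 to 100.7 CPM in vehicle and from 32.2 over 60.75 to 90.31 CPM in the combination, with ERKi from 66.26 over 86.31 to 108.7 and CDKi from 68.65 over 88.94 to 174.8 CPM. That put 5 of 6 combination libraries below the vehicle mean, at a log2 fold change of -0.41 (SE 0.22, edgeR quasi-likelihood adjusted p = 0.491). Srebf2, the gene of SREBP2, was at 147.9 ± 20.98 CPM in vehicle and 122.9 ± 27.62 in the combination (log2 fold change -0.27, SE 0.18). Scap and Insig2 had log2 fold changes of -0.15 (SE 0.13) and -0.12 (SE 0.15).

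Abca1 had the largest difference of the LXR and efflux set. It ran from 214.1 over 323 to 700.3 CPM in vehicle and from 399.7 over 719.6 to 973.5 CPM in the combination, with ERKi from 230.7 over 365.5 to 496.9 and CDKi from 161.1 over 327.6 to 547.4 CPM. All 6 combination libraries lay above the vehicle mean of 375.5 CPM, and the vehicle library at 700.3 CPM was again vehicle 4. The log2 fold change was 0.91 (SE 0.29, edgeR quasi-likelihood adjusted p = 0.194).

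Abcg1, the partner exporter, ran from 46.79 over 64.95 to 87.16 CPM in vehicle and from 61.25 over 86.85 to 97.55 CPM in the combination, with 5 of 6 combination libraries above the vehicle mean. Its log2 fold change was 0.4 (SE 0.15, edgeR quasi-likelihood adjusted p = 0.253). Apoe was at 1001 ± 94.54 CPM in vehicle and 1260 ± 387.4 in the combination, and Mylip at 112.6 ± 40.38 and 133.9 ± 35.02 CPM, with an unadjusted p above 0.05 for both. The receptor genes differed least: Nr1h2, the LXR made in most cells, was at 61.95 ± 6.546 and 64.53 ± 8.165 CPM, and Nr1h3, the LXR of macrophages, liver and fat, at 21.83 ± 3.656 and 20.36 ± 5.727 CPM.

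With either drug alone the synthesis enzymes and the genes of LXR and efflux lay on both sides of vehicle. In ERKi against vehicle 12 synthesis enzymes were higher and 6 lower (median log2 fold change 0.0839), and 1 gene of LXR and efflux was higher and 5 lower (median -0.0712). Of the 29 genes 0 were called, beside 0% of all genes, and 0 were at an unadjusted p under 0.05 in edgeR, beside 6.34% of all genes. DESeq2 called 0 and limma-voom 0 of them. The lowest synthesis enzyme was Hmgcs1 at -0.33 (SE 0.27) and the highest Tm7sf2 at 0.55 (SE 0.32), a value in which ERKi 3 stood at 16.77 CPM against at most 9.112 in the other 5 ERKi libraries.

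In CDKi against vehicle 11 synthesis enzymes were higher and 7 lower (median 0.0268), all 5 regulators were higher (median 0.0893) and LXR and efflux was split 3 to 3 (median -0.00388). Of the 29 genes 0 were called, beside 0% of all genes, and 0 were at an unadjusted p under 0.05 in edgeR, beside 3.12%. DESeq2 called 0 and limma-voom 0 here too. The extremes were Hmgcs1 at -0.18 (SE 0.27) and Insig1 at 0.29 (SE 0.22), whose CDKi mean of 101.1 CPM contained CDKi 5 at 174.8 CPM.

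**Figure D2:**
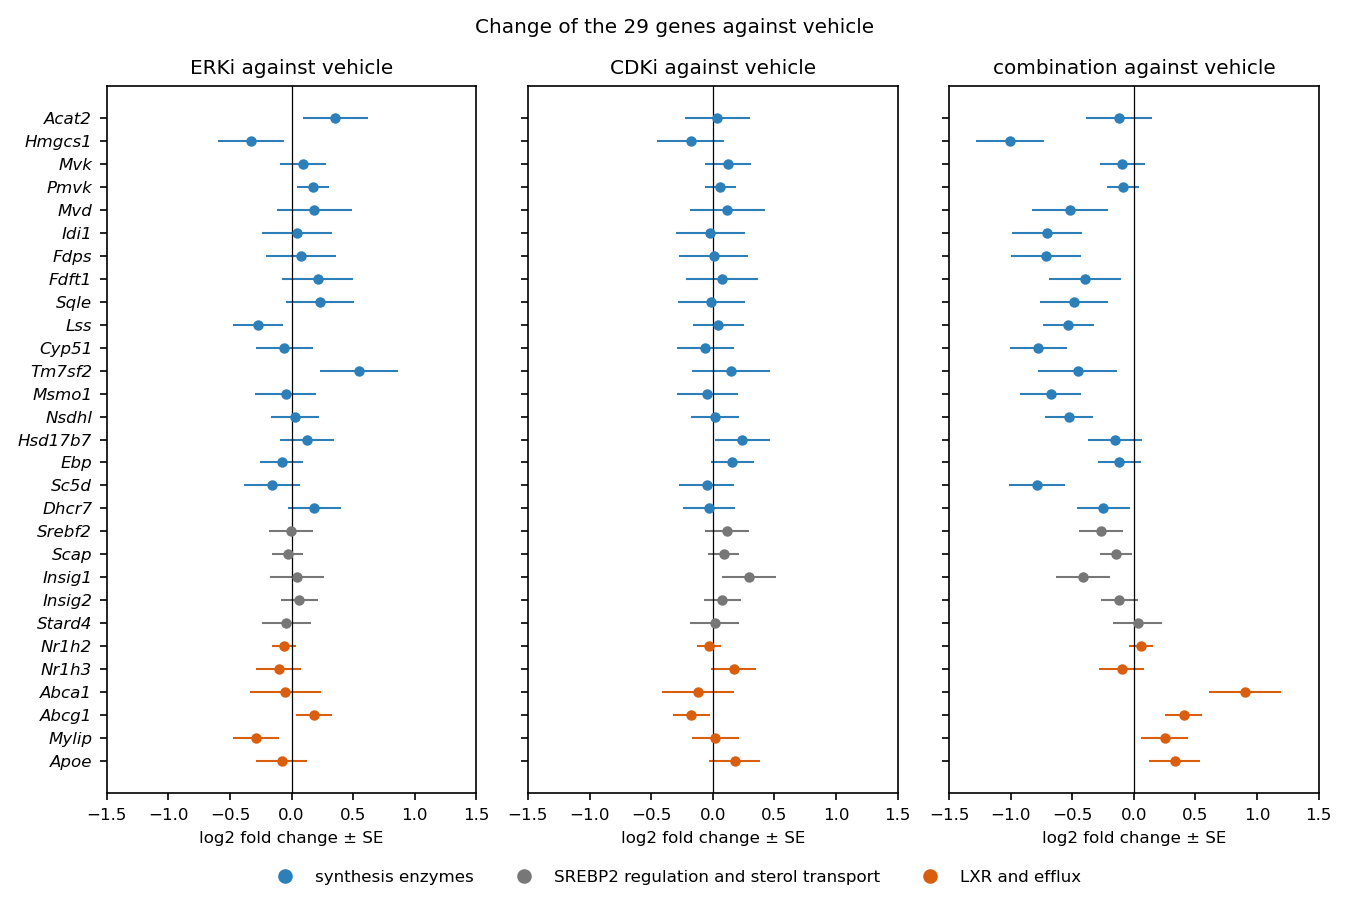
Log2 fold change against vehicle of the 29 genes in ERKi, CDKi and the combination (horizontal axis; points are edgeR estimates, bars ± SE), coloured by set. The 18 synthesis enzymes lie left of 0 in the combination, from -1.01 to -0.09, and on both sides of 0 for either drug alone.

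The 3 comparisons above share the vehicle libraries. Set against the single drugs, the combination again had lower levels of all 18 synthesis enzymes, with a median log2 fold change of -0.618 against ERKi and -0.56 against CDKi. Against ERKi 0 of 29 genes were called by edgeR, beside 0% of all genes, and 0 by DESeq2 and limma-voom. At an unadjusted p under 0.05, 11 synthesis enzymes and Insig1 were lower, beside 3.61% of all genes, and Abca1 and Mylip were higher, beside 5.73%. Against CDKi 0 of 29 were called, beside 0.0065% of all genes. At an unadjusted p under 0.05, 8 synthesis enzymes, Insig1 and Srebf2 were lower, beside 4.71%, and Abca1 and Abcg1 were higher, beside 2.36%. DESeq2 called Abcg1 there, among 84 genes, at a log2 fold change of 0.58 and an adjusted p of 0.0412, and limma-voom called 0 of the 29.

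The log2 fold changes of Abca1 were 0.96 (SE 0.29) against ERKi and 1.02 (SE 0.29) against CDKi, and those of Hmgcs1 were -0.68 (SE 0.27) and -0.83 (SE 0.27). Insig1 had log2 fold changes of -0.45 (SE 0.22) against ERKi and -0.7 (SE 0.22) against CDKi, at edgeR adjusted p-values of 0.533 and 0.4. The smallest edgeR adjusted p among the synthesis enzymes was 0.434 against ERKi and 0.4 against CDKi.

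Whether both drugs together differed from the sum of their separate differences was tested by the interaction term. All 18 synthesis enzymes had a negative term, with a median of -0.575, and 5 of 6 genes of LXR and efflux a positive one, with a median of 0.315, against -0.00135 for all tested genes. Of the 29 genes 0 were called, beside 0% of all genes, and DESeq2 and limma-voom also called 0. At an unadjusted p under 0.05 there were 3, beside 3.69% of all genes: Abca1 at 1.07 (SE 0.41), Insig1 at -0.75 (SE 0.31) and Tm7sf2 at -1.15 (SE 0.45). Their edgeR adjusted p was 0.988 in each case, so the difference from the sum did not pass the test for any of them.

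Averaged over the arms, the synthesis enzymes had a median of -0.201 where the ERK inhibitor was given. There 16 of 18 were lower, beside 46% of all genes. Where the CDK4/6 inhibitor was given the median was -0.279, with 17 of 18 lower, beside 52.5% of all genes. Both averages include the combination libraries. With either drug alone the medians against vehicle were 0.0839 for ERKi and 0.0268 for CDKi. In edgeR 0 of the 29 genes were called for either drug, beside 0% of all genes for both, and DESeq2 and limma-voom called 0. At an unadjusted p under 0.05 there were 7 of 29 for the ERK inhibitor, beside 9.54% of all genes, and 4 of 29 for the CDK4/6 inhibitor, beside 7.69%. ERKi against CDKi had 0 of 29 called, beside 0% of all genes, and 1 at an unadjusted p under 0.05, Abcg1, beside 4.54%; DESeq2 and limma-voom called 0.

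The contrast of synthesis with efflux was uneven among the combination libraries. The mean log2 CPM of the 18 synthesis enzymes was 3.969 in combination 3 and 4.308 in combination 5, the 2 lowest values of all 24 libraries, and between 4.714 and 5.323 in the other 4. Over the 6 genes of LXR and efflux the same 2 libraries stood at 7.387 and 7.505, the 2 highest of all. Outside the combination, vehicle 4 had the widest gap between the sets, with 4.763 for synthesis and 7.381 for efflux, and CDKi 5 the narrowest, with 5.704 and 6.723. Only combination 3 and combination 5 had a wider gap than vehicle 4. Group means of the synthesis enzymes were 5.232 ± 0.322 for vehicle, 5.317 ± 0.276 for ERKi, 5.277 ± 0.245 for CDKi and 4.712 ± 0.503 for the combination. Those of LXR and efflux were 6.92 ± 0.268, 6.87 ± 0.09, 6.927 ± 0.224 and 7.228 ± 0.206 in the same order, and the groups overlapped in both.

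**Figure D3:**
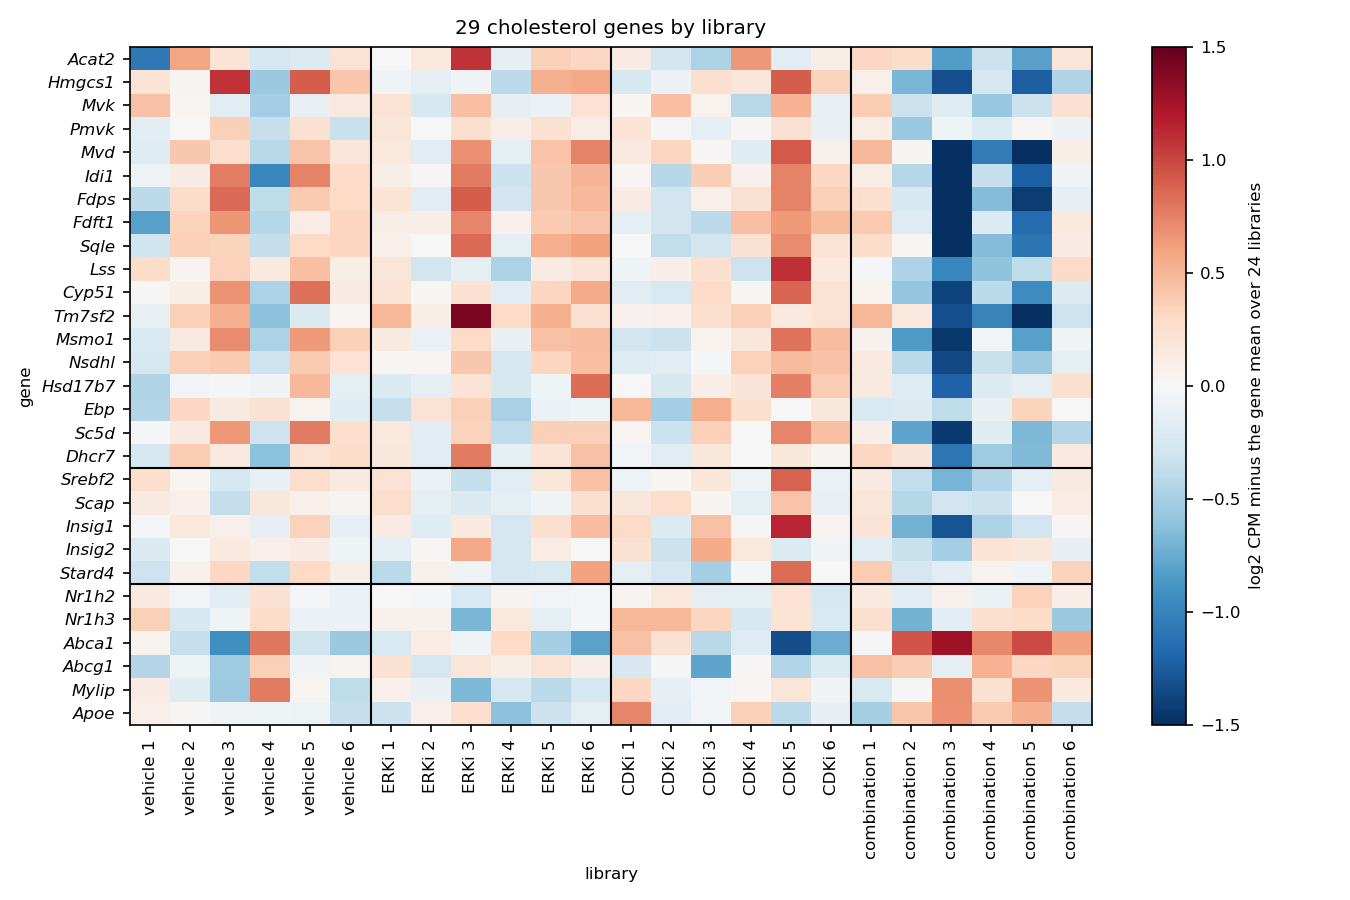
Log2 CPM of the 29 genes (rows) in the 24 libraries (columns), each minus the gene's mean over all libraries; red is higher, blue lower, with the colour scale ending at 1.5 either way. The synthesis rows are bluest in combination 3 and combination 5 and reddest in CDKi 5, and the Abca1 row has the opposite colours in these libraries.

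Without combination 3 and 5, the median over the synthesis enzymes against vehicle was -0.166, with 16 of 18 lower, and that of LXR and efflux was 0.0577, with 3 of 6 higher. In that fit 3 synthesis enzymes were lower at an unadjusted p under 0.05, beside 7.28% of all genes, and 2 genes of LXR and efflux were higher, beside 3.46%. Without the 6 libraries poor in neuron genes, to which these 2 belong, the medians were -0.251 for the synthesis enzymes and 0.0749 for LXR and efflux. Over the 44 other settings that were run, the log2 fold change of Hmgcs1 lay between -1.18 and -0.548 and that of Abca1 between 0.457 and 1.18. The smallest differences of both genes, -0.548 and 0.457, came from the fit with the mean of fibroblast marker genes as a covariate, described below. The titles of the samples are numbers in the 4000s or the 5000s, with 12 libraries in each, whose meaning the labels do not give. Within the 4000s the synthesis enzymes had a median of -0.288 and LXR and efflux one of 0.232, and within the 5000s the medians were -0.579 and 0.336.

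Marker genes of other cells also differed in level between these groups, with 0 genes of the lists given here called by edgeR. In the combination against vehicle 8 of 8 skeletal muscle genes were higher (median log2 fold change 3.04), as were 8 of 9 adipocyte genes (median 1.28), 5 of 5 endothelial genes (median 0.797) and 10 of 10 neuron genes (median 0.39). Fibroblast genes were lower in 5 of 5 cases (median -0.969), myelin genes in 17 of 18 (median -0.338) and macrophage genes in 8 of 10 (median -0.133). At an unadjusted p under 0.05 in edgeR, 5 endothelial and 2 adipocyte genes were higher, beside 4.93% of all genes. At that threshold 4 fibroblast and 3 myelin genes were lower, beside 6.58%, and the muscle, neuron and macrophage lists had 0 either way. Schwann cell genes were higher in 4 of 5 cases (median 0.0888), with 1 gene lower at that threshold. Satellite glia genes were lower in 3 of 4 (median -0.361), with 2 lower and 1 higher at it. The mean over the skeletal muscle genes ranged from -2.12 to -0.786 log2 CPM in vehicle and from -1.855 to 2.79 in the combination, and that over the adipocyte genes from -0.948 to 2.37 and from 0.671 to 2.742. Over the neuron genes it ranged from 2.122 to 8.219 and from 2.571 to 8.672, and over the endothelial genes from 3.776 to 4.618 and from 4.33 to 6.017. The endothelial, adipocyte and macrophage means of the combination were highest in combination 3, 1 of the 2 libraries with the lowest synthesis enzymes. The fibroblast mean ranged from 9.557 to 10.783 in vehicle and from 8.279 to 9.916 in the combination, the myelin mean from 8.915 to 9.439 and from 7.463 to 9.161, and the macrophage mean from 4.922 to 5.465 and from 3.984 to 5.995. The groups overlapped in each list. Of the skeletal muscle genes 5 (Ckm, Acta1, Myl1, Tnni2 and Mylpf) and of the adipocyte genes 2 (Lep and Adrb3) were at 0 in at least 1 library, and of the other lists named here 0 were. The skeletal muscle means in vehicle lay near the limit of detection, from which their median log2 fold change was measured.

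With the mean of 1 of these lists as a covariate, the synthesis enzymes stayed lower in the combination than in vehicle by their median, and LXR and efflux higher. The median over the synthesis enzymes was -0.669 with the macrophage list, -0.56 with the neuron list, -0.5 with the myelin list, -0.444 with the fibroblast list and -0.393 with the adipocyte list. Synthesis enzymes lower at an unadjusted p under 0.05 numbered 11 with the macrophage list, beside 8.16% of all genes, and 10 with the neuron list, beside 6.95%. They numbered 7 with the myelin list, beside 6.3%, 4 with the adipocyte list, beside 6.12%, and 2 with the fibroblast list, beside 2.03%. The median over LXR and efflux was between 0.166, with the fibroblast list, and 0.297, with the neuron list. Genes of that set higher at an unadjusted p under 0.05 numbered 3 with the macrophage list, beside 6.9% of all genes, and 0 with the fibroblast list, beside 3.13%. There were 2 each with the neuron, myelin and adipocyte lists, beside 7.21%, 7.62% and 3.94%. In each of these 5 fits 0 of the 29 genes were called. The part of endothelial and muscle cells in the differences was not tested.

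Across the 24 libraries levels of the synthesis enzymes were inversely related to Abca1, a relation that was examined after its values had been seen. For Hmgcs1 Pearson's r was -0.917 and Spearman's rho -0.945 (permutation p = 1e-05 for each, the smallest that 100000 permutations can give, with an adjusted p of 0.00256 for r over 15384 genes). This was the most negative r with Abca1 of the 15384 other tested genes. It was -0.889 without CDKi 5 and combination 3, the 2 libraries farthest from the median of Abca1, and -0.882 with group means subtracted. Within single groups of 6 it was -0.849 for vehicle, -0.955 for ERKi, -0.982 for CDKi and -0.896 for the combination, so libraries that had received the same treatment also showed it. Within the titles numbered in the 4000s and 5000s it was -0.92 and -0.905.

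Cyp51 with r = -0.911, Msmo1 with r = -0.906 and Sc5d with r = -0.895 were the genes in places 2, 3 and 5 of that order. All 18 enzymes had a negative r with Abca1, with a median of -0.742, against 45.2% of all genes with a negative r and a median of 0.0332. At an adjusted p under 0.05 over all tested genes 14 of 18 were negatively related by permutation, beside 2.92% of all genes. Without the 2 farthest libraries there were 12, beside 3.74%, and with group means subtracted 8, beside 0.494%. The exceptions over 24 libraries were the kinases Pmvk (r = -0.475, permutation adjusted p = 0.143) and Mvk (r = -0.437, permutation adjusted p = 0.196), Acat2 (r = -0.364, permutation adjusted p = 0.317) and the sterol isomerase gene Ebp (r = -0.14, permutation adjusted p = 0.803). Of the regulators, Insig1 (r = -0.787) and Srebf2 (r = -0.676) passed at permutation adjusted p-values of 0.00256 and 0.0174. Of the other genes of LXR and efflux Mylip passed, with a positive r of 0.613 (permutation adjusted p = 0.0334), beside 2.2% of all genes, while Apoe (r = 0.545) and Abcg1 (r = 0.488) did not, at 0.0791 and 0.129. The 2 measures of a library share its depth and its scaling.

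**Figure D4:**
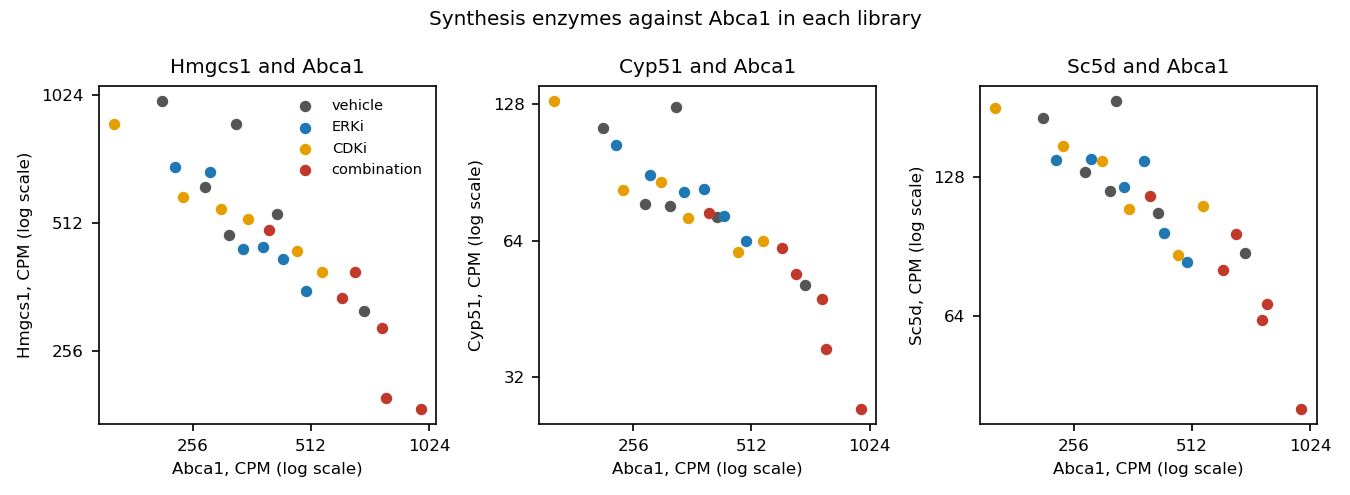
Hmgcs1, Cyp51 and Sc5d (vertical axes) against Abca1 (horizontal axis) in the 24 libraries, all in CPM on log2 axes, coloured by group. Points run from upper left, where CDKi 5 lies at 161.1 CPM of Abca1, to lower right, where combination 3 lies at 973.5 CPM, and libraries of every group lie along the slope.

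The members were also set against myelin and macrophage genes. Of 58 relations of a member to the mean of either list over 24 libraries, 3 passed an adjusted p under 0.05 by permutation, all positive and with the myelin list. They were Srebf2 (r = 0.642, rho = 0.601, permutation p = 0.00109 and 0.00232, adjusted p = 0.0316 and 0.0673), Scap (r = 0.615, rho = 0.63, permutation p = 0.00065 and 0.00147, adjusted p = 0.0316 and 0.0673) and Nr1h3 (r = 0.615, rho = 0.469, permutation p = 0.00181 and 0.0223, adjusted p = 0.035 and 0.216). Relation to the myelin list was common among genes: with adjustment over all tested genes 4 of the 29 members were positively related to it, these 3 and Lss, beside 16.5% of all genes, and 0 negatively, beside 14%. With the macrophage list 0 of 29 passed in either direction, beside 0.989% of all genes negative and 5.18% positive.

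The relations to the myelin list changed with the libraries used. Without ERKi 3 and combination 2, the libraries farthest from its median, r was 0.707 for Srebf2, 0.539 for Scap and 0.175 for Nr1h3, at permutation adjusted p-values of 0.0154, 0.0562 and 0.678, so that Srebf2 alone of the 3 still passed. Within the titles in the 4000s, which hold both of those libraries, r was 0.79 for Srebf2, 0.812 for Scap and 0.815 for Nr1h3, and within the 5000s it was 0.595, 0.597 and 0.634. Srebf2, Scap and Nr1h3 all passed with group means subtracted, at permutation adjusted p-values of 0.036, 0.036 and 0.0391. Without the 3 libraries rich in Alb they also passed, at permutation adjusted p-values of 0.0266, 0.00754 and 0.0458. For the synthesis enzymes the median r over 24 libraries was 0.093 with the myelin list and -0.175 with the macrophage list, and 0 of 18 passed with either among the 58 relations. Without ERKi 3 and combination 2, 5 of 18 passed with the myelin list, all positive, with Lss at r = 0.714 and Sc5d at r = 0.653 (permutation adjusted p = 0.0154 and 0.0193), and without the 3 libraries rich in Alb 3 passed. With adjustment over all tested genes 3 of 18 were positively related without ERKi 3 and combination 2, beside 3.16% of all genes. Without the libraries rich in Alb 2 of 18 were, beside 6.33%. At an unadjusted permutation p under 0.05 there were 10 of 18 positive without ERKi 3 and combination 2, beside 9.16% of all genes, and 8 without the libraries rich in Alb, beside 13.8%. Over all 24 libraries there were 2, beside 22.3%.

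The other genes of cholesterol handling, 32 in all, were split between higher and lower levels in the combination. They comprised 7 genes of uptake and the lysosome, 6 of storage and transfer, 5 of SREBP processing, 4 other SREBP targets, 7 LXR partners and targets and 3 oxysterol enzymes. Of these, 12 were higher and 20 lower, with a median of -0.0899, and 0 were called by edgeR, with 5 of 32 at an unadjusted p under 0.05, beside 11.5% of all genes. The 3 with the smallest p were Ch25h, an oxysterol-making hydroxylase, Soat1, which esterifies cholesterol for storage, and Tmem97, a sterol-responsive membrane protein. Ch25h had a log2 fold change of 1.17 (SE 0.35), Soat1 one of -0.4 (SE 0.12) and Tmem97 one of -0.68 (SE 0.21), at edgeR adjusted p-values of 0.158, 0.165 and 0.179. The level of Ch25h was low, from 1.556 to 3.13 CPM in vehicle. In the combination it was 10.67 CPM in combination 3, 8.081 in combination 5 and between 2.162 and 4.031 in the rest. Median log2 fold changes were -0.119 for uptake and lysosome, 0.0226 for storage and transfer, -0.0836 for SREBP processing, -0.166 for the other SREBP targets, -0.0962 for the LXR partners and targets and 0.239 for the oxysterol enzymes.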

How the data were processed

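RNA sequencing libraries of whole sciatic nerve were assigned to groups by the treatment label. RNA was extracted with a Qiagen RNeasy kit and, per the labels' protocols, made into KAPA RNA HyperPrep libraries after ribosomal RNA removal, while the molecule label reads polyA RNA; which holds is not settled by the labels. The table deposited by the authors holds raw counts for each gene symbol and sample, neither scaled nor pooled. Tools named in the submitters' processing notes are FastQC, STAR and DESeq2, with build mm10. How reads were counted, with which annotation and strand rule, is not given in the sources used here, so reads of overlapping or antisense genes could not be told apart.

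The counts were tested with edgeR 4.0.16 in R 4.3.3: filterByExpr (minimum count 10, minimum total 15), TMM scaling and a robust quasi-likelihood model over all 24 libraries with a mean per group (20 residual degrees of freedom, biological coefficient of variation 35.9%). The 9 contrasts were tested two-sided, with Benjamini-Hochberg adjustment over 15385 genes at 0.05. For log2 CPM of a library the prior count was 2. Correlations used 100000 permutations, adjusted over all tested genes for Abca1 and over 58 relations for the myelin and macrophage lists, where the adjustment over all tested genes is given beside it; the tests over all genes were added after seeing the data. DESeq2 1.42.0, limma-voom (limma 3.58.1), other scalings, filters, covariates and left-out libraries were the alternatives. The edgeR, DESeq2 and limma steps were tested on simulated data. No pair of libraries within a group agreed within sampling noise (lowest chi-square per degree of freedom 18.9 over 60 pairs). Exon lengths and gene positions are from GENCODE, promoters from RefSeq. The members, gene lists and tests were chosen with earlier results of these data known. The named genes are the 29 members and, as no gene of the wider list was called, the 3 of it with the smallest p in the combination against vehicle. Other genes named in the closing section were chosen after their values were seen.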

Additional observations from a re-analysis of the deposited data

Results flagged for a closer look

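Levels in which 1 library stood far from the other 5 of its group were looked for in 136 groups of 6, over the members and the list means, and 12 were found; chance alone flags about 1 in 20 groups. Among the synthesis enzymes, Tm7sf2 was at 16.77 CPM in ERKi 3 and Hsd17b7 at 13.56 CPM in combination 3. Srebf2 was at 260.8 CPM in CDKi 5, where the mean log2 CPM over the SREBP2 regulation and sterol transport genes was 6.586, and Scap was at 65.37 CPM in vehicle 3, the shallowest library. Nr1h2 was at 52.13 CPM and Nr1h3 at 13.14 CPM in ERKi 3, where the mean over the myelin genes was 7.124 log2 CPM and Alb was above 100 CPM. Abcg1 was lowest in ERKi 2 at 57.08 CPM and in combination 3 at 61.25 CPM, although combination 3 had the highest Abca1. Apoe was at 829.9 CPM in vehicle 6, and the mean over the macrophage genes was 5.93 log2 CPM in CDKi 3.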

How the results depend on the processing

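Of 29 members 0 were called in all 9 contrasts, and this held under all alternatives that were run except DESeq2 (2 in the combination against vehicle, Hmgcs1 and Sc5d; 1 in the combination against CDKi, Abcg1) and the fit without vehicle replicate 4 (1, Hmgcs1, so that leaving out single libraries gave 0 to 1 in the combination against vehicle and 0 elsewhere). DESeq2 called 272 genes of all in the combination against vehicle where edgeR called 19. The median of the synthesis enzymes minus that of LXR and efflux was -0.792 in the combination against vehicle and ranged from -1.01 to -0.541 when single libraries were left out. The values were 0.155 (0.0215 to 0.273) in ERKi against vehicle, 0.0307 (-0.207 to 0.153) in CDKi against vehicle, -0.935 (-1.13 to -0.766) in the combination against ERKi and -0.75 (-0.953 to -0.55) in the combination against CDKi. They were 0.182 (0.0459 to 0.341) in ERKi against CDKi, -0.89 (-1.06 to -0.722) for the interaction, -0.226 (-0.326 to -0.152) for the ERK inhibitor and -0.463 (-0.564 to -0.371) for the CDK4/6 inhibitor. Without the libraries poor in neuron genes the value in the combination against CDKi was -0.201, and without combination replicates 3 and 5 together, an alternative added after seeing the data, that against vehicle was -0.224; fewer samples entered both fits, and the cause was not tested. The fibroblast covariate and the fits within the 4000 and 5000 titles were added then too. Members related to the myelin or macrophage list numbered 3, but 7 without the 2 farthest libraries, 6 with group means subtracted and 7 without the libraries with over 100 CPM of Alb. With adjustment over all tested genes, 4 of 29 were positively related to the myelin list, beside 16.5% of all genes. It was 5 without the 2 farthest libraries, beside 3.16%, and 5 without the libraries rich in Alb, beside 6.33%. With group means subtracted 4 were positively related to it, beside 19%, and 1 negatively, beside 14.8%. For the macrophage list that setting gave 2 negative relations, beside 3.29%, and 1 positive, beside 7.93%. Direction differed in 29 of 1276 member values in the combination against vehicle and in 146 of 1276 in CDKi against vehicle. No paired analysis was possible because the titles give no replicate number that groups share. Depth did not limit the members, whose levels all lay above the limit of detection.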

Other observations

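Some genes of the wider cholesterol list had their largest differences against a single drug. Ch25h, whose product is made in activated macrophages and other cells, had a log2 fold change of 1.39 (SE 0.35, edgeR adjusted p = 0.392) in the combination against ERKi. Its ERKi libraries ran from 0.6884 to 3.082 CPM, and its highest combination levels were in combination 3 and combination 5, at 10.67 and 8.081 CPM. Srebf1, the gene of the SREBP that drives fatty acid synthesis and a target of LXR, had one of 0.71 (SE 0.24, edgeR adjusted p = 0.45) in the same comparison. Acly and Aacs, which feed acetyl units into lipid synthesis, had -0.49 (SE 0.22) and -0.58 (SE 0.27) there, and Cyp7b1, an oxysterol-clearing hydroxylase, had -0.59 (SE 0.2) in the combination against CDKi. None of these passed the test in edgeR, and each had an unadjusted p under 0.05.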
